A study of Arabidopsis thaliana with 5 samples.

Results

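The replicate 3 preparations of INTACT-purified *Arabidopsis* endosperm nuclei were compared with the replicate 2 preparations, in both directions of a Col × Ler cross. The comparison used 4 of the 5 RNA-seq libraries of the series: replicate 3 of Col × Ler, replicate 3 of Ler × Col, replicate 2 of Col × Ler and replicate 2 of Ler × Col. Replicate 1 of Ler × Col was left out, and the series holds no first replicate of Col × Ler. The paper estimated contamination from departures from the expected parental read ratio. It states that on this basis the first replicates of both crosses were not analysed further. It also states that 3 replicates of Ler × Col were merged. The question was which tissue programmes, those of the seed coat, the silique and the endosperm, differ between preparations that carry the same label.

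INTACT labels the nuclei of a chosen cell type: a tag on the nuclear envelope receives biotin from a ligase made in that cell, and streptavidin beads then pull those nuclei out of a crude extract. Here tag and ligase were expressed from the promoter of *PHE1*, a type I MADS-box gene of the endosperm (*PHE1::NTF* and *PHE1::BirA*, the INT lines). The mother is named first in each cross. For Col × Ler, male sterile *dde2* plants of Col that carried INT were pollinated with wild-type Ler, and for Ler × Col, male sterile *pistillata* (*pi-1*) plants of Ler were pollinated with the INT line in Col. The tag was therefore brought in by the mother in Col × Ler and by the father in Ler × Col. All siliques were collected at 4 days after pollination (DAP), and replicates 2 and 3 came from the same mass of siliques. Replicate numbers follow the names in the sample descriptions, since the sample titles number the Col × Ler libraries differently. The labels do not say whether libraries of the same number were prepared together.

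An *Arabidopsis* seed at this age holds a syncytial or cellularising endosperm and a small embryo, enclosed by the maternal seed coat, and it sits in a green silique. The innermost layer of the seed coat, the endothelium, makes proanthocyanidins through the flavonoid pathway, under a complex of the MYB protein TT2, the bHLH protein TT8 and the WD40 protein TTG1. Type I MADS-box genes, the HAIKU genes and the bHLH gene *ZOU* mark the endosperm. Storage albumins, cruciferins and oleosins are products of the maturing seed.

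Values are RPKM, which divide the reads of a gene by its length and by the sequencing depth, and differences are given on the log2(RPKM + 1) scale, which understates the change of low genes. Steps in the low RPKM values of tRNA genes gave depths of 26.5 and 28.6 M reads in replicate 3 of Col × Ler and Ler × Col, against 12.5 and 20.3 M in replicate 2. In the table of 33602 genes, 1822 and 3293 genes were listed at 0 in replicate 3 of Col × Ler and Ler × Col, and 12393 and 10800 in replicate 2. The median RPKM was 4.47 and 3.40 in the replicate 3 libraries, against 1.91 and 0.952 in the replicate 2 libraries. At or above 1 RPKM in both replicate 3 libraries yet at 0 in both replicate 2 libraries were 936 genes, and the opposite pattern was found for 2 genes. Depth and the number of genes at 0 therefore moved with the preparation, and their part in the differences below was not tested. Pearson's r across the 22158 genes tested was 0.948 for the pair of replicate 3 libraries and 0.839 for the pair of replicate 2 libraries, while libraries of the same cross gave 0.835 in Col × Ler and 0.844 in Ler × Col. These are correlations across genes, which are not independent replicates.

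Most genes were higher in replicate 3 on the deposited scale. The median difference of all genes tested was 0.62 in Col × Ler and 1.39 in Ler × Col (1.04 over both). A higher value in replicate 3 in both crosses was found for 15454 genes (69.7%), a lower value in both for 1342 (6.06%), and opposite directions for 5336 (24.1%). Both replicate 3 libraries lay above both replicate 2 libraries for 13915 genes (62.8% of those tested) and below them for 1035 (4.67%). A difference of at least 1 in both crosses was reached by 6187 genes upward (27.9%) and by 360 downward (1.62%). limma, with the cross as a block, called 2985 genes higher (13.5%) and 67 lower (0.302%) at an adjusted p under 0.05. With the cross left out of the fit, it called 0 genes in either direction. Genes tested reached 1 RPKM in at least 2 libraries. Those below 1 RPKM in both replicate 2 libraries therefore passed only through replicate 3, with their direction fixed. Of the called list members (pollen aside), these were *AHA10*, *TT2*, *TT16*, *TTG2*, *FUL*, *RPL*, *MYB60*, *SPCH*, *FAMA*, *PEG2*, *AGL36*, *BBM*, *MP* and *LOX2*. *SESA5* was the reverse case. With at least 1 RPKM in all 4 libraries, 552 genes were called higher and 31 lower. With 1 residual degree of freedom, moderation gave the spread of the single gene no weight. The SE of a gene is therefore the trend over all genes of like level, and its p-value rests on that trend. Neither measures how well the crosses agree for that gene, so that a call can come from a large difference in a single cross.

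The balance of higher and lower calls turned with the scaling of the libraries. Higher genes made up 97.8% of the calls on the deposited RPKM. After quantile normalization, 595 genes were called higher (2.69%) and 817 lower (3.69%), so that higher genes made up 42.1% of the calls. TMM scaling gave 209 higher and 494 lower (29.7% higher), and centring each library on its median gave 541 higher and 1217 lower (30.8% higher). Of the genes called on the deposited values, 195 higher and 36 lower genes were called the same way after both quantile normalization and TMM scaling. The gene lists are therefore described relative to the median of all genes, and how many of the calls were made again after quantile normalization and TMM scaling is given for each list. In bulk nuclei, fewer nuclei of a cell type and less RNA per nucleus cannot be told apart.

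**Figure D1:**
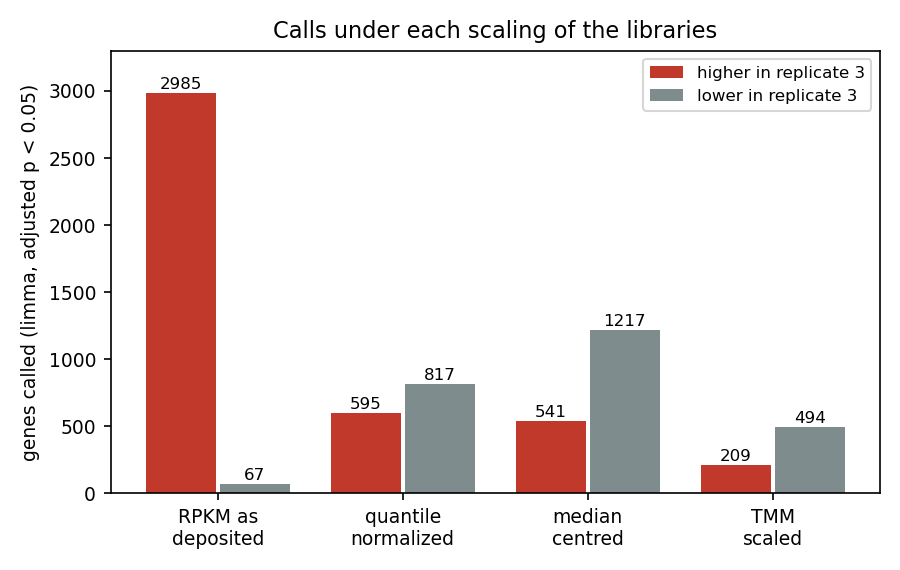
Number of genes called by limma (adjusted p under 0.05, vertical axis) as higher (red) or lower (grey) in replicate 3, for the RPKM as deposited and after 3 other scalings. The deposited values gave 2985 higher and 67 lower genes, and quantile normalization 595 and 817.

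Genes of seed coat pigment were higher in replicate 3 in both crosses. Of the 12 genes listed, all passed the filter on low values. In 11, both replicate 3 libraries lay above both replicate 2 libraries, against 62.8% of all genes. The number called higher was 9, against 13.5% of all genes. Their median difference was 1.80 in Col × Ler and 3.04 in Ler × Col, which is 1.38 above that of all genes over both crosses (1.57 after quantile normalization and 1.24 after TMM scaling). None was called lower.

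*TT4*, chalcone synthase at the entry of the flavonoid pathway, was at 104 and 98.0 RPKM in replicate 3 of Col × Ler and Ler × Col, against 29.5 and 6.34 RPKM in replicate 2. The lower value in the replicate 2 libraries was that of Ler × Col, and the preparations did not overlap (difference 2.77, SE 0.84, adjusted p = 0.0148). *LDOX*, the leucoanthocyanidin dioxygenase of the late pathway, was at 56.9 and 90.2 RPKM in replicate 3, against 6.60 and 5.17 RPKM in replicate 2. Here the replicate 2 libraries of the crosses were close to each other, and the difference was 3.41 (SE 0.84, adjusted p = 0.00249). *BAN*, the anthocyanidin reductase that commits the pathway to proanthocyanidins in the endothelium, was at 26.3 and 37.9 RPKM in replicate 3, against 6.12 and 0.885 RPKM in replicate 2. Its difference was 1.94 in Col × Ler and 4.37 in Ler × Col (3.15 over both, SE 0.83, adjusted p = 0.00482). *DFR*, dihydroflavonol reductase, was at 33.2 and 15.6 RPKM in replicate 3, against 10.9 and 0.689 RPKM in replicate 2 (adjusted p = 0.0344). The values of *TT19*, a glutathione transferase of flavonoid transport, were 74.8 and 104 RPKM in replicate 3, against 29.9 and 7.35 RPKM in replicate 2 (adjusted p = 0.0313). In each of *TT4*, *BAN*, *DFR* and *TT19*, the gap was wider in Ler × Col.

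*TT5* (chalcone isomerase, difference 2.42), *F3H* (flavanone 3-hydroxylase, 2.43), *TT7* (the P450 of B-ring hydroxylation, 2.38) and *AHA10* (a proton pump of the endothelium, 1.53) were also called higher. *AHA10* was low throughout, with 3.07 and 2.62 RPKM in replicate 3 against 0.252 and 0.415 RPKM in replicate 2. Quantile normalization called 7 of the 12 genes, against 2.69% of all genes, leaving out *DFR* (adjusted p = 0.0791) and *AHA10* (adjusted p = 0.861). TMM scaling called 2, *TT4* and *LDOX* (adjusted p = 0.0412 and 0.0144), with *TT5*, *F3H*, *TT7*, *BAN* and *TT19* at adjusted p-values from 0.0627 to 0.0890. *TT12*, the vacuolar transporter of the precursors, did not pass with 11.8 and 22.6 RPKM in replicate 3 against 2.63 and 4.67 RPKM in replicate 2 (adjusted p = 0.0955). *TT10*, the laccase that oxidises proanthocyanidins late in seed coat development, was the only listed gene with overlapping preparations, at 2.57 and 2.60 RPKM in replicate 3 against 1.78 and 2.84 RPKM in replicate 2. *F3H*, *TT12* and *TT19* each overlap an annotated gene on the other strand. Whether the counting used strand is not given in the sources used here, so reads of these partners cannot be told apart where they overlap. *TT4* (to chr5:4490264) and its partner on the other strand (from chr5:4490263) share only their end bases. For *F3H* the partner is a long non-coding RNA gene that covers most of it.

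The upstream sequences of the called pigment genes are shown because these genes moved together and because bHLH proteins such as TT8 bind E-boxes, of which the G-box is a kind. The 250 bases before the annotated gene start were read from RefSeq's TAIR10.1 assembly, and CACGTG, which reads the same on both strands, was searched. It was found upstream of 4 of the 12 pigment genes, all 4 among the 9 called, against 6.49% of 27443 protein-coding genes. Other lists had it as well: 6 of 10 storage protein and oleosin genes, which were not higher in replicate 3, and 5 of 11 clock genes. The photosynthesis list had it in 3 of 23 genes and the endosperm list in 2 of 33, so it does not mark the genes that were higher. The broader E-box CANNTG, which contains every CACGTG, was found upstream of 9 of the 12 genes, against 55.3% of all. The 4 sequences with CACGTG follow in capitals, each 5′ to 3′ on the strand of its gene.
BAN, chr1:22792804-22793053, minus strand: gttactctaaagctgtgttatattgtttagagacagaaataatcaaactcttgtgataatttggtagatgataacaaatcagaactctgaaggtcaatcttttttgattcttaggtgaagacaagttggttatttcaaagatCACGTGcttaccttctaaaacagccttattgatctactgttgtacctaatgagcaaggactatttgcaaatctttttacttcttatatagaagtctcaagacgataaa
DFR, chr5:17166033-17166282, minus strand: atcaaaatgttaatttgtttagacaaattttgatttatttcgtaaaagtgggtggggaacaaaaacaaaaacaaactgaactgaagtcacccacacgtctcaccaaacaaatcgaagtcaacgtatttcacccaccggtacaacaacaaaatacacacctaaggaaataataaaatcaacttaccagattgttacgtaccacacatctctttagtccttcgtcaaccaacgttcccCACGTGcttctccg
F3H, chr3:19024942-19025191, plus strand: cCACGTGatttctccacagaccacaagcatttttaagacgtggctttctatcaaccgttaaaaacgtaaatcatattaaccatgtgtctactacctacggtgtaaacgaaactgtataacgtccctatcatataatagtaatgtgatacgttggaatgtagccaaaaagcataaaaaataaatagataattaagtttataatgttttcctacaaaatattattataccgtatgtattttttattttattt
TT4, chr5:4488226-4488475, plus strand: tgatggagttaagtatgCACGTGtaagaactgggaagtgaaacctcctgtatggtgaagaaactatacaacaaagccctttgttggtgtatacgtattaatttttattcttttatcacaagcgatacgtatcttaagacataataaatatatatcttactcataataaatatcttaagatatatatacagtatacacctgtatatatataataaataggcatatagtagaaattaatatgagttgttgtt
The match began 108 bases before the start of *BAN*, 14 before *DFR*, 249 before *F3H* and 233 before *TT4*. *LDOX*, with the largest difference of the list, had neither CACGTG nor CANNTG in this window. A match is a description of the sequence and not a binding site.

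Regulators of the seed coat were also higher in replicate 3. All 14 genes listed passed the filter, all 14 were higher in replicate 3 in both crosses, against 69.7% of all genes, and 6 were called, against 13.5%. The median difference was 2.06 in Col × Ler and 2.00 in Ler × Col, 0.88 above that of all genes. *TT2*, the MYB activator of *BAN*, was at 14.2 and 12.7 RPKM in replicate 3 of Col × Ler and Ler × Col, against 0 and 0.911 RPKM in replicate 2 (difference 3.38, SE 0.74, adjusted p = 0.000673). Its bHLH partner *TT8* was at 18.6 and 15.9 RPKM in replicate 3, against 0.348 and 1.96 RPKM in replicate 2 (difference 3.19, SE 0.79, adjusted p = 0.00272). *TTG1*, the WD40 partner of both, was at 20.5 and 20.9 RPKM in replicate 3, against 17.0 and 12.7 RPKM in replicate 2, and did not pass (difference 0.47, adjusted p = 0.681). Thus the transcripts of 2 members of the complex were low in the replicate 2 libraries while that of *TTG1*, which acts in many other tissues, was not.

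*TT16*, a MADS-box gene of the endothelium, was at 2.51 and 2.30 RPKM in replicate 3 and listed at 0 in both replicate 2 libraries (adjusted p = 0.00875). *TTG2*, a WRKY gene of the seed coat and trichomes, was at 3.79 and 4.19 RPKM in replicate 3, against 0 and 0.705 RPKM in replicate 2 (adjusted p = 0.0156). *TT2*, *TT16* and *TTG2* could pass the filter only through replicate 3, so only a higher value was possible for them. *EGL3*, a bHLH gene of the epidermis, was at 7.06 and 13.6 RPKM in replicate 3, against 0.102 and 2.74 RPKM in replicate 2 (adjusted p = 0.0170). The ovule and valve margin gene *SHP1* was at 57.8 and 32.1 RPKM in replicate 3, against 13.0 and 4.63 RPKM in replicate 2 (adjusted p = 0.0452). *TT1*, a zinc finger gene of the endothelium and the highest of the list, was at 127 and 65.0 RPKM in replicate 3, against 27.7 and 15 RPKM in replicate 2, just short of the threshold (adjusted p = 0.0739). *GL2*, an HD-ZIP gene of the epidermis and mucilage cells, was at 24.2 and 22.9 RPKM in replicate 3, against 21.6 and 8.98 RPKM in replicate 2 (adjusted p = 0.533). After quantile normalization, *TT1* and *SHP1* were called (adjusted p = 0.0313 and 0.0382), while *TT2* and *TT8* missed the threshold (adjusted p = 0.0528 and 0.0832) and *TT16*, *TTG2* and *EGL3* did so by more. TMM scaling called 0 of the 14 (*TT2* was nearest, with adjusted p = 0.0806). The fitted difference of a gene listed at 0 depends on the pseudocount.

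Genes of seed coat mucilage did not share this pattern. Of 12 genes listed, 10 passed the filter, with 2 of the 12 at too low a level to be tested (*PMEI6* and *MUCI21*). limma called 0 of the 10 (0 also at an unadjusted p under 0.05), against 13.5% of all genes called higher. These are too few genes to tell such shares apart. Over all 12, the median difference was 0.26 in Col × Ler and 0.97 in Ler × Col, below the 0.62 and 1.39 of all genes. *RHM2*, the rhamnose synthase MUM4, was at 47.4 and 38.4 RPKM in replicate 3, against 76.2 and 120 RPKM in replicate 2. It was the highest of the list and lay lower in replicate 3 in both crosses (difference -1.15, adjusted p = 0.331, and 0.0143 after quantile normalization, where it was called lower). *SBT1.7*, a subtilase of mucilage release, was at 14.4 and 8.64 RPKM in replicate 3, against 26.1 and 8.53 RPKM in replicate 2, and the preparations overlapped. *BXL1* (25.2 and 8.85 RPKM against 7.06 and 2.85 RPKM in replicate 2) and *BGAL6* (15.7 and 8.67 RPKM against 7.92 and 1.80 RPKM), which encode enzymes that trim mucilage sugars, were higher in replicate 3 without passing. The unlike behaviour of pigment and mucilage genes was not tested as a difference between lists.

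**Figure D2:**
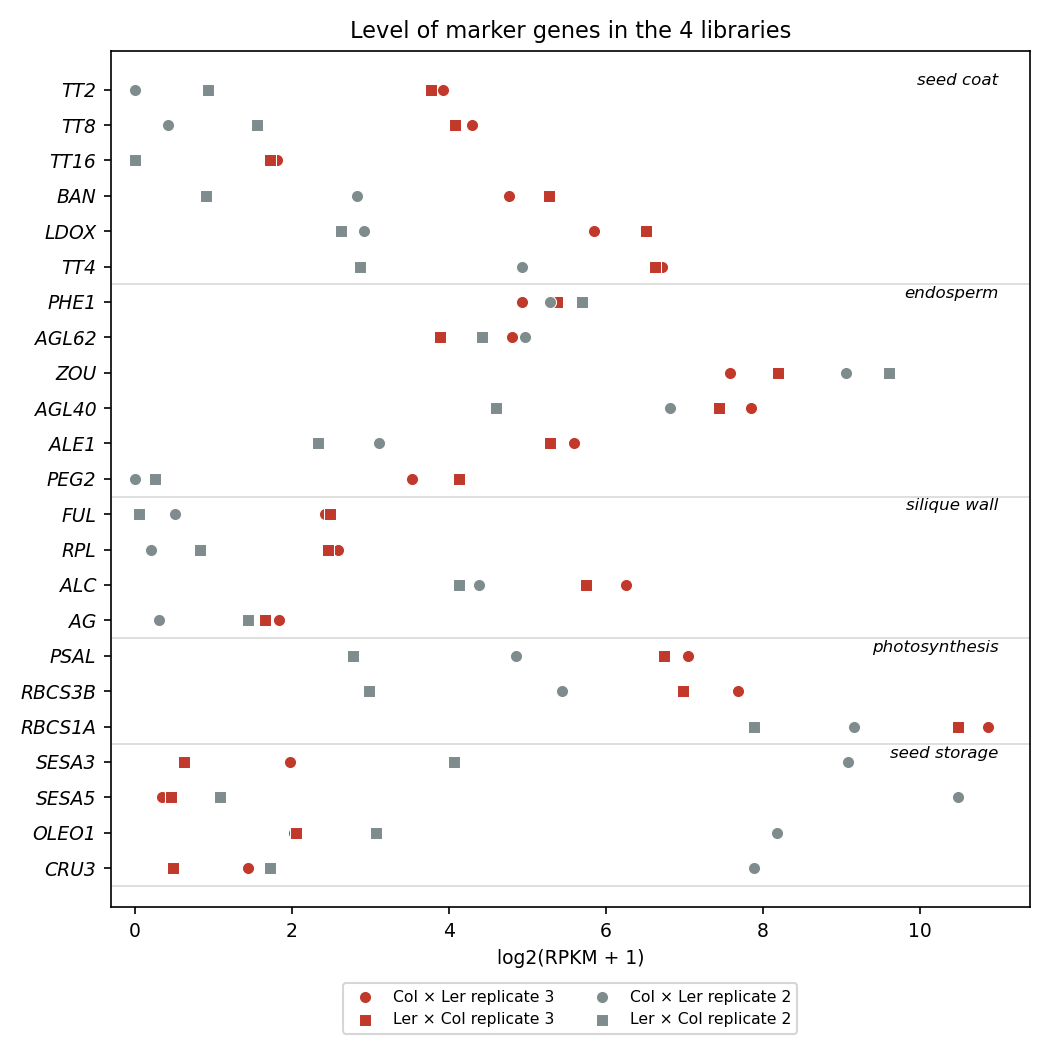
Level of marker genes in the 4 libraries, as log2(RPKM + 1) on the horizontal axis, with replicate 3 in red, replicate 2 in grey, Col × Ler as circles and Ler × Col as squares. The seed coat and photosynthesis genes shown lie to the right in both replicate 3 libraries, *PHE1* and *AGL62* overlap, and the storage genes lie far to the right only in replicate 2 of Col × Ler.

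Transcripts of the silique wall and carpel were few in all 4 libraries, and the list lay above the shift of all genes in Col × Ler and below it in Ler × Col. Of 18 genes listed, 11 passed the filter, 2 were called higher (18.2%, against 13.5% of all genes) and 0 lower. Over all 18, with those that did not pass, the median difference was 1.39 in Col × Ler and 0.55 in Ler × Col, and 12 of the 18 were higher in both crosses, a share near the 69.7% of all genes. Over the 11 tested, the excess over all genes was 0.99 in Col × Ler and -0.48 in Ler × Col, opposite in sign. *FUL*, the MADS-box gene of valve identity, was at 4.36 and 4.62 RPKM in replicate 3, against 0.424 and 0.0436 RPKM in replicate 2 (difference 2.17, SE 0.60, adjusted p = 0.00670). The replum gene *RPL* was at 5.03 and 4.52 RPKM in replicate 3, against 0.158 and 0.781 RPKM in replicate 2 (difference 2.01, adjusted p = 0.0178). Both genes were below 1 RPKM in each replicate 2 library, so they passed the filter only through replicate 3 and their direction was fixed. Neither was called after quantile normalization (adjusted p = 0.332 and 0.540) or TMM scaling (adjusted p = 0.119 and 0.294).

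*ALC*, a bHLH gene of the valve margin, was by far the highest of the list at 75.5 and 52.7 RPKM in replicate 3, against 20 and 16.6 RPKM in replicate 2 (difference 1.74, adjusted p = 0.147). It overlaps *ICU2* on the other strand. *BP*, a KNOX gene of the replum, was at 7.82 and 4.77 RPKM in replicate 3, against 0.788 and 2.05 RPKM in replicate 2 (adjusted p = 0.113). *SPT*, a bHLH gene of the carpel, was at 5.87 and 8.77 RPKM in replicate 3, against 14 and 7.95 RPKM in replicate 2, and *NST1*, a secondary wall gene of the valve margin, at 5.38 and 4.94 RPKM against 6.63 and 0 RPKM. For these 2 genes the preparations overlapped. *AG*, the carpel identity gene, was at 2.57 and 2.16 RPKM in replicate 3, against 0.246 and 1.73 RPKM in replicate 2 (adjusted p = 0.293). The carpel gene *CRC* and the valve genes *FIL* and *YAB3* stayed below 3 RPKM in every library used.

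Vascular genes were called at about the share of all genes. Of 11 listed, 7 passed the filter and 1 was called (14.3%, against 13.5% of all genes). This was *PP2-A1*, a phloem lectin, with 10.4 and 6.32 RPKM in replicate 3 against 1.59 and 0 RPKM in replicate 2 (difference 2.51, SE 0.70, adjusted p = 0.00804). It was not called after quantile normalization (adjusted p = 0.148) or TMM scaling (adjusted p = 0.113). The phloem sucrose transporter *SUC2* was at 13.9 and 7.72 RPKM in replicate 3, against 5.54 and 3.27 RPKM in replicate 2, and the secondary wall cellulose synthase *CESA4* at 12.5 and 10.2 RPKM against 7.22 and 3.83 RPKM. *CESA8* was at 8.43 and 3.37 RPKM in replicate 3, against 8.83 and 0.515 RPKM in replicate 2. None of these 3 passed the test, and the median of the list over both crosses lay 0.07 above that of all genes.

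Photosynthesis genes, which mark green tissue such as the silique wall and also the green seed, were higher in replicate 3 in both crosses. All 23 genes listed were tested, all 23 were higher in both crosses (69.7% of all genes), 21 did not overlap between the preparations (62.8% of all genes), and 5 were called (21.7%, against 13.5% of all genes). The median difference was 1.25 in Col × Ler and 2.61 in Ler × Col, 0.92 above that of all genes, 1.53 above it after quantile normalization and 0.73 above it after TMM scaling. Quantile normalization called 14 genes, against 2.69% of all genes, and TMM scaling called 3 (*RBCS2B*, *RBCS3B* and *PSAL*). *RBCS1A*, the main small subunit of Rubisco, was at 1870 and 1428 RPKM in replicate 3 of Col × Ler and Ler × Col, against 570 and 235 RPKM in replicate 2. It had the highest mean level of any listed gene and stayed short of the threshold (difference 2.15, SE 0.84, adjusted p = 0.0649). *PSAL*, a subunit of photosystem I, was at 131 and 106 RPKM in replicate 3, against 27.9 and 5.85 RPKM in replicate 2 (difference 3.08, adjusted p = 0.00658), and *PSAF* of the same complex was at 318 and 285 RPKM against 97.3 and 25.6 RPKM (2.56, adjusted p = 0.0258). *GAPA*, of the Calvin cycle, was at 76.6 and 58.5 RPKM in replicate 3, against 22.8 and 6.03 RPKM in replicate 2 (2.39, adjusted p = 0.0379).

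The Rubisco genes *RBCS3B* (204 and 126 RPKM in replicate 3 against 42.6 and 6.90 RPKM in replicate 2) and *RBCS2B* (66.6 and 34.3 RPKM against 16.9 and 0.229 RPKM) were called as well. They are near-identical neighbours, so reads may have been split between them. Among the highest genes that did not pass, *LHCB1.3* was at 1147 and 940 RPKM in replicate 3 against 728 and 180 RPKM in replicate 2, *LHCB1.1* at 660 and 290 RPKM against 374 and 83.2 RPKM, and *PSBO1* at 445 and 421 RPKM against 327 and 110 RPKM. In these antenna and oxygen-evolving genes the replicate 2 library of Ler × Col was the low one, and the gap in Col × Ler was under 1.

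Genes of the epidermis and the stomatal lineage lay above the shift of all genes as well. Of 14 genes, 13 passed the filter and 6 were called higher (46.2%, against 13.5% of all genes), and the median difference was 1.39 in Col × Ler and 1.95 in Ler × Col, 0.79 above that of all genes. *CER1*, of wax alkane synthesis, was at 75 and 31.2 RPKM in replicate 3, against 6.20 and 5.97 RPKM in replicate 2 (difference 2.80, adjusted p = 0.0132). *MYB60*, a guard cell gene, was at 25.2 and 9.71 RPKM in replicate 3, against 0.969 and 0.0798 RPKM in replicate 2 (difference 3.52, SE 0.76, adjusted p = 0.000581). Both were also called after quantile normalization (adjusted p = 0.0273 and 0.0213). *SPCH*, which starts the stomatal lineage, was at 3.16 and 1.95 RPKM in replicate 3 and listed at 0 in both replicate 2 libraries, and *FAMA*, of the guard cell itself, was at 3.37 and 4.07 RPKM against 0.507 and 0.171 RPKM. *MYB60*, *SPCH* and *FAMA* could pass the filter only through replicate 3.

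The myrosinase genes *TGG1* (12.5 and 18.7 RPKM in replicate 3 against 0 and 7.94 RPKM in replicate 2) and *TGG2* (13.1 and 3.70 RPKM against 1.15 and 0.211 RPKM) completed the calls. *SPCH*, *FAMA*, *TGG1* and *TGG2* were not called after quantile normalization (adjusted p = 0.498, 0.555, 0.387 and 0.223), and TMM scaling called only *MYB60* (adjusted p = 0.0422). *LTP1* was at 155 and 161 RPKM in replicate 3 against 85.5 and 53.0 RPKM in replicate 2, *FDH* at 78.7 and 52.5 RPKM against 29.4 and 6.95 RPKM, and *KCS6* at 39.5 and 25.8 RPKM against 22.9 and 1.77 RPKM, and none of these 3 passed on the deposited values. *FDH* was called after quantile normalization (adjusted p = 0.0317). *ATML1*, which is also expressed in the embryo's outer layer, was at 24.4 and 24 RPKM in replicate 3, against 20.4 and 7.13 RPKM in replicate 2.

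Endosperm genes, taken as a list, lay close to the shift of all genes. Of 33 listed, 31 passed the filter, 6 were called higher (19.4%, against 13.5% of all genes) and 0 lower. In both crosses, 21 of the 33 were higher and 3 lower, against 69.7% and 6.06% of all genes. The median difference was 0.96 in Col × Ler and 1.60 in Ler × Col, 0.15 above that of all genes. *PHE1*, whose promoter drives the tag, was at 29.7 and 40.5 RPKM in replicate 3 of Col × Ler and Ler × Col, against 38.1 and 51.0 RPKM in replicate 2. It was slightly lower in replicate 3 within each cross, the preparations overlapped, and the difference was -0.34 (SE 0.84, adjusted p = 0.768). *AGL62*, which holds back cellularisation, was at 26.9 and 13.8 RPKM in replicate 3, against 30.4 and 20.4 RPKM in replicate 2 (difference -0.35, adjusted p = 0.758). *ZOU*, a bHLH gene of endosperm breakdown and the highest of the list, was at 190 and 291 RPKM in replicate 3, against 532 and 777 RPKM in replicate 2. Its preparations did not overlap and its differences of -1.48 and -1.41 were alike in the crosses, but it did not pass (adjusted p = 0.226, and 0.157 after quantile normalization). These 3 genes were the listed members that were lower in both crosses, against a shift of all genes of 1.04 upward.

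The 6 endosperm genes called were spread over several functions. *PEG2*, a paternally expressed gene, was at 10.6 and 16.5 RPKM in replicate 3, against 0 and 0.194 RPKM in replicate 2 (difference 3.71, SE 0.71, adjusted p = 9.06e-05). *ALE1*, a subtilase that acts between endosperm and embryo surface, was at 47.2 and 38 RPKM in replicate 3, against 7.65 and 4.07 RPKM in replicate 2 (difference 2.71, adjusted p = 0.0167). Both were also called after quantile normalization (adjusted p = 0.0190 and 0.0128). *PEG2*, like *AGL36* below, could pass the filter only through replicate 3. In the HAIKU pathway, which sets seed size, *IKU1* was at 17.5 and 18.6 RPKM in replicate 3 against 1.94 and 3.84 RPKM in replicate 2, and *MINI3* at 25.7 and 20.8 RPKM against 1.69 and 6.73 RPKM. The receptor kinase *IKU2* of that pathway was at 2.60 and 2.15 RPKM in replicate 3, against 0.852 and 0 RPKM in replicate 2, and did not pass. *IPT4*, of cytokinin synthesis in the chalazal endosperm, was at 29.2 and 35.3 RPKM in replicate 3, against 11.8 and 2.62 RPKM in replicate 2 (adjusted p = 0.0480), and the imprinted MADS-box gene *AGL36* was at 2.33 and 1.29 RPKM against 0 in both replicate 2 libraries. The calls of *IKU1*, *MINI3*, *IPT4* and *AGL36* were lost after quantile normalization (adjusted p = 0.237, 0.233, 0.0827 and 0.886), and TMM scaling called only *PEG2* of the list (adjusted p = 0.0338).

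Type I MADS-box and HD-ZIP genes varied among themselves. *AGL40* was at 230 and 173 RPKM in replicate 3, against 112 and 23.4 RPKM in replicate 2 (difference 1.93, adjusted p = 0.105, and 0.0131 after quantile normalization). *HDG8* was at 182 and 227 RPKM in replicate 3, against 220 and 48.4 RPKM in replicate 2, and *HDG3* at 84.3 and 129 RPKM against 108 and 67.0 RPKM. In both, replicate 3 was lower in Col × Ler and higher in Ler × Col. *PHE2*, the close relative of *PHE1*, was at 31.7 and 28.3 RPKM in replicate 3, against 13.2 and 3.35 RPKM in replicate 2, opposite to *PHE1* (adjusted p = 0.0936). Since the 2 genes are near-identical, the split of reads between them is uncertain. The Polycomb gene *MEA* was at 5.58 and 5.57 RPKM in replicate 3, against 9.33 and 5.52 RPKM in replicate 2, and *FIS2* at 32.5 and 28.0 RPKM against 14.7 and 6.55 RPKM.

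**Figure D3:**
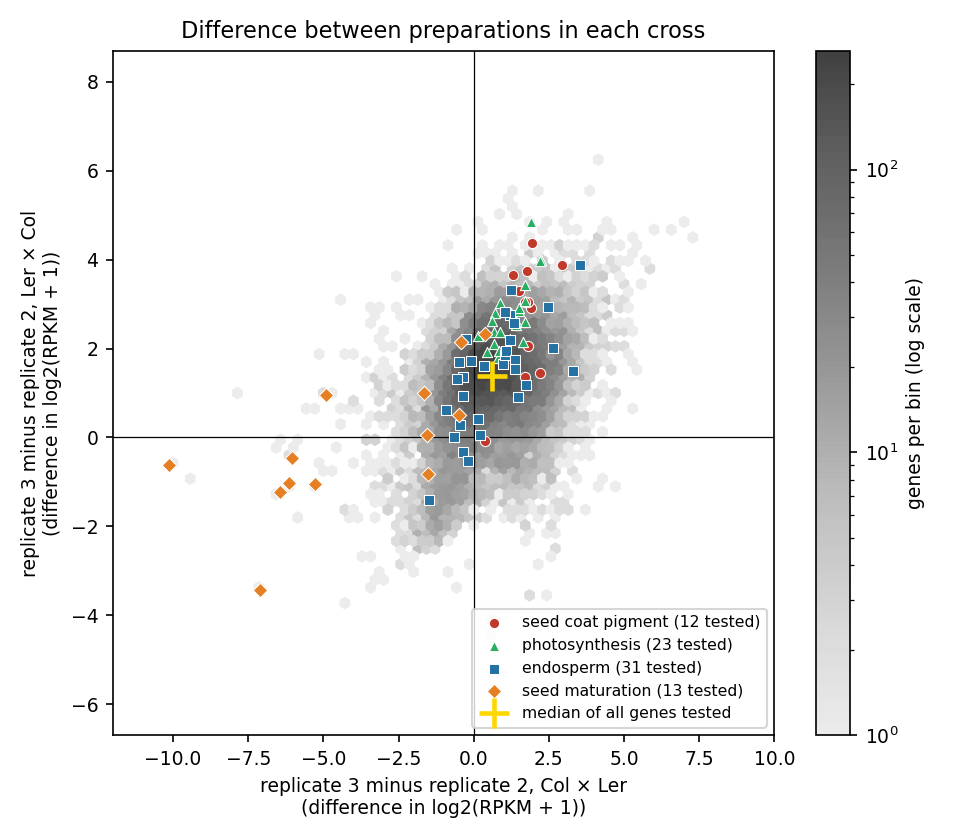
Difference of replicate 3 minus replicate 2 in log2(RPKM + 1) for each gene tested, in Col × Ler (horizontal) and Ler × Col (vertical), with the density of all 22158 genes in grey and their median as a gold cross. Most pigment and photosynthesis genes lie up and to the right of the median (*TT10*, *AHA10*, *LHCB6*, *LHCA3* and *PSBO1* do not), endosperm genes lie around it, and most storage genes lie far to the left with small differences in Ler × Col.

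Seed maturation genes were lower in replicate 3, and most of the gap was in replicate 2 of Col × Ler. Of 15 genes listed, 13 passed the filter, 6 were called lower, against 0.302% of all genes, and 0 higher. The median difference was -4.91 in Col × Ler and -0.47 in Ler × Col. Among the 10 storage protein and oleosin genes, the summed level was 24.6 and 11.3 RPKM in replicate 3 of Col × Ler and Ler × Col, against 3167 and 38.7 RPKM in replicate 2. *SESA5*, a storage albumin, was at 0.272 and 0.380 RPKM in replicate 3, against 1437 and 1.13 RPKM in replicate 2. Its fitted difference of -5.38 (SE 0.83, adjusted p = 3.15e-07) is the mean of -10.14 in Col × Ler and -0.62 in Ler × Col. *SESA3* was at 2.94 and 0.547 RPKM in replicate 3, against 542 and 15.8 RPKM in replicate 2, and was the only one of the 6 with a difference over 2 in Ler × Col (-3.44).

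*CRU3*, a cruciferin, was at 1.73 and 0.409 RPKM in replicate 3, against 236 and 2.30 RPKM in replicate 2, and *CRA1* at 1.05 and 1.13 RPKM against 133 and 1.95 RPKM. *SESA4* was at 3.17 and 1.12 RPKM in replicate 3, against 162 and 3.36 RPKM in replicate 2, and the oleosin *OLEO1* at 3.10 and 3.16 RPKM against 290 and 7.43 RPKM. The adjusted p-values of these 4 lay between 0.000485 and 0.00432. All 6 called genes were also called lower after quantile normalization, and 4 after TMM scaling, without *SESA5* (adjusted p = 0.0663) and *CRA1* (adjusted p = 0.0604). In Ler × Col alone, with the 2 Col × Ler libraries left aside, the differences of *CRU3*, *CRA1*, *SESA4* and *OLEO1* were between -1.23 and -0.47. Those of *SESA5* and *SESA3* were -0.62 and -3.44, and no test was possible within the cross. *SESA1* to *SESA4* lie side by side on chromosome 4 and are similar in sequence, so reads may be shared among them. None of the listed regulators of the programme was called: *LEC1* was at 78.8 and 78.3 RPKM in replicate 3 against 105 and 16.8 RPKM in replicate 2, *LEC2* at 22.6 and 18.4 RPKM against 32 and 12.6 RPKM, and *FUS3* at 20.3 and 9.37 RPKM against 15.2 and 1.07 RPKM. *ABI3* was at 0.881 and 1.15 RPKM in replicate 3, against 4.51 and 1.07 RPKM in replicate 2.

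The storage genes share a sequence feature that the values did not choose. The RY element CATGCA, or TGCATG on the other strand, is the sequence bound by the B3 proteins ABI3, FUS3 and LEC2. It was found in the 250 bases before the gene start of 9 of the 10 storage protein and oleosin genes (*CRU2* lacked it), against 8.43% of 27443 protein-coding genes. Upstream of *LEC1*, *LEC2*, *ABI3* and *L1L* these letters were not in the window. The sequences of 4 of the genes called lower are shown with the RY letters in capitals, where overlapping matches run together.
SESA3, chr4:13611546-13611795, plus strand: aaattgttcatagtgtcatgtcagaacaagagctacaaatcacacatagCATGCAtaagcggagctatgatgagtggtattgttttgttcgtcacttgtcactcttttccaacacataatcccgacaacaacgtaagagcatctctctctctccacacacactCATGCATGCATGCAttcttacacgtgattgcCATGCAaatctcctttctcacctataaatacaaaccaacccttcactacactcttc
SESA5, chr5:22239188-22239437, minus strand: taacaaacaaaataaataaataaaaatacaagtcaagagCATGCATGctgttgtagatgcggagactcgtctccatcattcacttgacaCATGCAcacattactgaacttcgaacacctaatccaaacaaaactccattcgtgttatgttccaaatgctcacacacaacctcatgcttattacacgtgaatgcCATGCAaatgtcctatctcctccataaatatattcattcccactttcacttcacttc
CRU3, chr4:14087306-14087555, plus strand: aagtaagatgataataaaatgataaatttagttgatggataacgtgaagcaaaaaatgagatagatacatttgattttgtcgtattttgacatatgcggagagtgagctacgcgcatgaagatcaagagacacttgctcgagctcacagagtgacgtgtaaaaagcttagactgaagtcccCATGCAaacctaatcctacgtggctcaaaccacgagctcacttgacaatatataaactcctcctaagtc
OLEO1, chr4:12900180-12900429, plus strand: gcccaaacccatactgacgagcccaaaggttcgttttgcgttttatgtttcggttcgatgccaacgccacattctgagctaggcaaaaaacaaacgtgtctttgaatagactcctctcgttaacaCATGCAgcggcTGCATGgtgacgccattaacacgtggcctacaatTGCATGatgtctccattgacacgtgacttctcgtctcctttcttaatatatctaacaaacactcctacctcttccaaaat
*SESA3* held 7 matches, of which 5 overlap in a single run, *SESA5* held 4, *OLEO1* 3 and *CRU3* 1.

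Most embryo genes were low in the libraries compared. Of 17 listed, 10 passed the filter and 3 were called higher, against 13.5% of all genes. None of the 3 was called after quantile normalization (*STM* 0.417, *BBM* 0.913 and *MP* 0.662 as adjusted p) or TMM scaling (0.355, 0.191 and 0.203). *STM*, of the shoot meristem, was at 11.9 and 4.60 RPKM in replicate 3, against 0 and 1.7 RPKM in replicate 2 (adjusted p = 0.0117). *BBM* was at 2.31 and 1.12 RPKM in replicate 3 and listed at 0 in both replicate 2 libraries (adjusted p = 0.0276), and the auxin response factor gene *MP* was at 3 and 2.11 RPKM against 0 and 0.175 RPKM (adjusted p = 0.0148). *BBM* and *MP* could pass the filter only through replicate 3. *WOX8*, of the suspensor, was much the highest at 119 and 103 RPKM in replicate 3, against 65.4 and 23.6 RPKM in replicate 2 (adjusted p = 0.220). *WOX9* was at 7.75 and 2.48 RPKM in replicate 3, against 3.92 and 3.32 RPKM in replicate 2, and the boundary gene *CUC3* at 5.28 and 1.59 RPKM against 5.42 and 0.267 RPKM. Over all 17 genes the median difference was 0.94 in Col × Ler and 0.74 in Ler × Col.

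Cell division genes lay below the shift of all genes, by more in Col × Ler than in Ler × Col. All 26 were tested, and limma called 0 on the deposited values (3 higher and 0 lower at an unadjusted p under 0.05). Of all genes, 13.5% were called higher and 0.302% lower. After quantile normalization, 2 of the list were called lower, against 3.69% of all genes. The median difference of the list was -0.47 in Col × Ler and 1.29 in Ler × Col. All genes had 0.62 and 1.39, so the excess of the list was -1.09 and -0.11. *CDC20.1*, an activator of anaphase, was at 562 and 376 RPKM in replicate 3, against 751 and 110 RPKM in replicate 2, and its neighbour *CDC20.2* at 200 and 134 RPKM against 226 and 19.2 RPKM. *KN*, the syntaxin of cytokinesis, was at 37.5 and 43.0 RPKM in replicate 3, against 146 and 40.6 RPKM in replicate 2. *MAD2*, of the spindle checkpoint, was at 53.0 and 46.6 RPKM in replicate 3, against 222 and 40.3 RPKM in replicate 2. For *KN* and *MAD2* the single high library was replicate 2 of Col × Ler, the library that was also high for storage genes. Both were called lower after quantile normalization (adjusted p = 0.00978 and 0.0131). The difference between the crosses could not be tested, since each cross has 1 library of each preparation.

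Of 11 clock genes tested, 2 were called higher (18.2%, against 13.5% of all genes): *CCA1*, a MYB gene that peaks at dawn, with 84.7 and 55.7 RPKM in replicate 3 against 10.5 and 7.05 RPKM in replicate 2 (difference 2.86, SE 0.84, adjusted p = 0.0118), and *PRR7*, with 88.8 and 85.6 RPKM against 14.9 and 14 RPKM (difference 2.51, adjusted p = 0.0285). These gaps were almost the same in both crosses (2.90 and 2.81 for *CCA1*, 2.49 and 2.53 for *PRR7*). *RVE8*, another dawn gene, was at 70.2 and 44.4 RPKM in replicate 3, against 14 and 8.74 RPKM in replicate 2 (adjusted p = 0.0542), and *LHY* was at 41.8 and 25.5 RPKM against 6.95 and 6.27 RPKM (adjusted p = 0.0646). The day gene *PRR9* was at 5.06 and 2.82 RPKM in replicate 3, against 0.829 and 1.05 RPKM in replicate 2 (adjusted p = 0.151). *CCA1*, *PRR7* and *RVE8* were called after quantile normalization, and *CCA1* alone after TMM scaling (adjusted p = 0.0384). Among evening genes, *TOC1* was at 39.8 and 36.1 RPKM in replicate 3 against 32.7 and 19.7 RPKM in replicate 2, *GI* at 6 and 5.78 RPKM against 3.49 and 3.27 RPKM, and *LUX* at 26.3 and 28.9 RPKM against 57.9 and 7.22 RPKM. Hours of harvest are not given in the sources used here.

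Genes of touch, wounding and heat gave 1 call among 17 (5.88%, against 13.5% of all genes). *LOX2*, of jasmonate synthesis, was at 3.31 and 7.25 RPKM in replicate 3, against 0.337 and 0.486 RPKM in replicate 2 (adjusted p = 0.0141, and 0.486 after quantile normalization). The touch gene *TCH2* was at 54.0 and 38 RPKM in replicate 3, against 20.4 and 9.70 RPKM in replicate 2, and *ZAT12*, a zinc finger gene of early stress, at 32.8 and 40.5 RPKM against 11.2 and 8.14 RPKM. *HSP90.1*, a heat shock gene, ran the other way, at 47.1 and 77.3 RPKM in replicate 3 against 151 and 190 RPKM in replicate 2 (difference -1.47, adjusted p = 0.219), as did *DREB2A*, a factor of drought and heat, at 22.4 and 25.3 RPKM against 45.3 and 41.8 RPKM. Neither passed on the deposited values, and both were called lower after quantile normalization (adjusted p = 0.00283 and 0.00867).

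**Figure D4:**
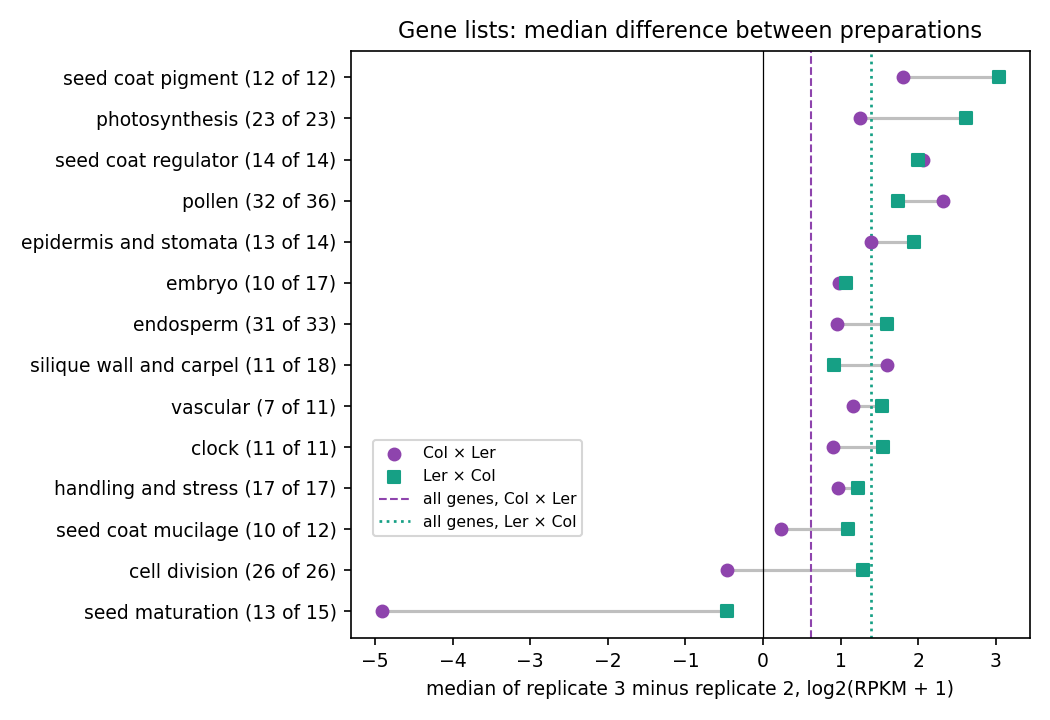
Median difference of replicate 3 minus replicate 2 in log2(RPKM + 1) for each gene list, in Col × Ler (purple circles) and Ler × Col (green squares), with the number of genes tested of those listed, and the medians of all genes as a dashed line (Col × Ler, 0.62) and a dotted line (Ler × Col, 1.39). The pigment, regulator, photosynthesis, pollen, epidermis, endosperm, vascular and clock lists lie to the right of the line of each cross. The seed maturation, mucilage and cell division lists lie to the left.

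The largest upward differences in both crosses were not in any of these lists. Among the genes called higher with a mean of at least 5 RPKM and a difference of at least 1 in both crosses (924 genes), the largest mean difference was that of AT2G02515, an uncharacterized protein gene, with 116 and 132 RPKM in replicate 3 against 0 and 3.56 RPKM in replicate 2. AT3G20365, annotated as a short pseudogene, followed with 147 and 121 RPKM in replicate 3 against 0 and 4.69 RPKM in replicate 2. AT3G07820, of the pectin lyase-like family, was at 115 and 38.6 RPKM in replicate 3, against 0.228 and 0.527 RPKM in replicate 2. AT5G60615, a defensin-like gene, was at 62.6 and 24.4 RPKM in replicate 3 and listed at 0 in both replicate 2 libraries. These 4 had differences between 5.33 and 5.87 and adjusted p-values between 4.81e-08 and 1.48e-07.

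*AGP41*, an arabinogalactan protein gene, was at 59.4 and 32.8 RPKM in replicate 3, against 0.277 and 0.684 RPKM in replicate 2, and *BGAL11*, a beta-galactosidase gene, at 52.5 and 27.8 RPKM against 0.370 and 0.369 RPKM. AT3G28750, uncharacterized, was at 371 and 197 RPKM in replicate 3, against 18.9 and 1.65 RPKM in replicate 2. The remaining 5 of the 12 largest (AT3G01230, AT5G54095, AT2G27936, AT2G35765 and AT5G39880) had differences between 4.71 and 4.85, and all 12 were also called after quantile normalization. Each of these 12 genes was higher in both replicate 3 libraries than in either replicate 2 library. AT3G07820, AT5G60615, *AGP41*, AT3G01230 and *BGAL11* were below 1 RPKM in both replicate 2 libraries, so the filter fixed their direction.

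After *AGP41* and its companions had been seen, 36 genes known from pollen and pollen tubes were listed, so that the list and its members describe these libraries and carry no test. Of the 36, 32 passed the filter, 33 were higher in replicate 3 in both crosses and 2 lower (69.7% and 6.06% of all genes tested). The median over all 36 was 1.96 in Col × Ler and 1.64 in Ler × Col, where that of all genes tested was 0.62 and 1.39. *RALFL8*, a RALF-like peptide gene, was at 534 and 241 RPKM in replicate 3, against 19.5 and 11.2 RPKM in replicate 2. *VGD1*, a pectin methylesterase of the pollen tube, was at 427 and 240 RPKM in replicate 3, against 52.5 and 33.5 RPKM in replicate 2, and the pollen gene *BCP1* at 255 and 101 RPKM against 20.9 and 2.92 RPKM. The arabinogalactan protein genes *AGP11* (232 and 86.8 RPKM in replicate 3 against 14.1 and 3.40 RPKM in replicate 2) and *AGP6* (153 and 36.0 RPKM against 15.9 and 7.49 RPKM) had the same order. Replicate 3 of Col × Ler was the highest of the 4 libraries in each of these 5 genes.

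*RALFL4* and *RALFL19*, peptide genes of pollen tube integrity, were at 54.9 and 17.7 RPKM and at 59.4 and 23.9 RPKM in replicate 3, against 0.383 and 0.118 RPKM and 0.199 and 1.29 RPKM in replicate 2. Genes of sperm cells were low: *MGH3* was at 5.76 and 2.14 RPKM in replicate 3 against 0 and 1.23 RPKM in replicate 2, *GEX2* at 1.75 and 1.22 RPKM against 2.72 and 0.129 RPKM, and *HAP2* at 1.67 and 1.08 RPKM against 2.98 and 1.23 RPKM. The MYB gene *MYB97* of the pollen tube was at 1.90 and 1.65 RPKM in replicate 3 against 5.38 and 1.98 RPKM in replicate 2. *MYB97* and *HAP2* were the 2 members lower in replicate 3 in both crosses.

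With the same limits, 34 genes were lower in replicate 3 in both crosses, and *SESA3* of the maturation list had the largest difference (-5.27). Leaving the storage genes aside, AT5G50740, of a family of heavy metal transport and detoxification proteins, was at 141 and 226 RPKM in replicate 3, against 2695 and 2856 RPKM in replicate 2 (difference -3.95, SE 0.84, adjusted p = 0.000500). AT1G63100, a GRAS family transcription factor gene, was at 92.5 and 68.1 RPKM in replicate 3, against 944 and 710 RPKM in replicate 2 (difference -3.35, adjusted p = 0.00306). AT4G36700, of the cupin family, was at 105 and 123 RPKM in replicate 3, against 1051 and 1104 RPKM in replicate 2 (difference -3.23, adjusted p = 0.00422). *CNGC4*, a cyclic nucleotide-gated channel, was at 16.8 and 16.9 RPKM in replicate 3, against 148 and 142 RPKM in replicate 2 (difference -3.03, adjusted p = 0.00746). In these 4 genes the libraries of each preparation were close to each other across the crosses, unlike the storage genes.

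AT3G51230, of the chalcone-flavanone isomerase family, was at 8.39 and 13.1 RPKM in replicate 3, against 76.1 and 127 RPKM in replicate 2 (difference -3.11, adjusted p = 0.00598). It lies at chr3:19023064-19024352 of TAIR10.1 on the minus strand, beside the pigment gene *F3H* at chr3:19025192-19026872 on the plus strand, which was higher in replicate 3. AT1G12080, a vacuolar calcium-binding protein gene, was at 90.7 and 125 RPKM in replicate 3, against 1066 and 774 RPKM in replicate 2 (difference -3.08, adjusted p = 0.00657). AT1G68250, uncharacterized, was at 0.366 and 1.02 RPKM in replicate 3, against 79.2 and 5.69 RPKM in replicate 2, so that replicate 2 of Col × Ler again stood highest. *WRI1*, the AP2 regulator of seed oil synthesis, and *3xHMG-box1*, an HMG-box gene of dividing cells, were named after their values were seen. *WRI1* was at 177 and 318 RPKM in replicate 3, against 969 and 1564 RPKM in replicate 2 (adjusted p = 0.0403), and *3xHMG-box1* at 127 and 127 RPKM against 571 and 786 RPKM (adjusted p = 0.0388).

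AT2G01021, an uncharacterized gene with an exon length of 102 bases on chromosome 2 next to ribosomal RNA genes, was at 4205 and 4568 RPKM in replicate 3, against 59013 and 28939 RPKM in replicate 2 (difference -3.24, adjusted p = 0.00354). Its neighbours AT2G01010 and AT2G01020, annotated as ribosomal RNA and also named after their values were seen, were at 3.10 and 2.60 RPKM and at 4.81 and 5.77 RPKM in replicate 3, against 79.1 and 10.8 RPKM and 97.2 and 9.30 RPKM in replicate 2. All 4 ribosomal RNA genes of the table were lower in replicate 3 in both crosses (6.06% of all genes), with no overlap between the preparations (4.67% of all genes). All 4 were called lower after quantile normalization (3.69% of all genes). They are not independent genes: AT2G01010 and AT3G41768 are both annotated as 18S, with 1808 bases and near-equal values. AT2G01020 and AT3G41979 both have 164 bases, and reads may be shared within each pair. AT2G01021 was not called after quantile normalization (adjusted p = 0.963), where the values at the top of each library are set equal, while the other 11 of the 12 genes with the largest differences downward were.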

How the data were processed

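RNA of INTACT-purified endosperm nuclei at 4 DAP was measured by poly(A) RNA-seq. The authors deposited RPKM values per gene and library with both parental alleles summed. Per the labels, the submitters' processing notes name TopHat2 2.1 and TAIR10. The gene annotation and the use of strand in counting are not given in the sources used here. In the table, 0 columns were left without a sample. RPKM values hold no counts, so depth was estimated from tRNA genes with fewer than 20 reads (96.8 to 99.6% of values within 0.05 of a whole read, 40 to 300 genes per library) and is approximate.

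Genes that reached 1 RPKM in 2 or more of the 4 libraries (22158 of 33602) were compared on log2(RPKM + 1) with limma 3.58.1 in R 4.3.3, with preparation and cross as terms, moderated variances with a trend on the mean, and Benjamini-Hochberg adjustment over all genes tested. The paper's methods name no test of total expression. The fit leaves 1 residual degree of freedom, and the estimated prior was infinite. The fit was run on simulated data with its own moderated spread, where 200 genes were changed by 3 on the log2 scale. It recovered 96 of them (48%) and made 5 false calls. A gene that was not called may therefore still differ. Summaries used Python 3.11.15 with pandas 2.3.3 and NumPy 2.4.6. Names, overlaps and upstream sequences were taken from RefSeq's TAIR10.1, which matched 32835 identifiers.

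The groups, gene lists and named genes were chosen with earlier results of these data known, and the pollen list after the values of this comparison were seen. Named genes are the 12 with the largest mean difference in each direction among calls with a mean of at least 5 RPKM and a difference of at least 1 in both crosses, the called members and the 4 highest members of each list, and *PHE1*, *BAN*, *TT2*, *TT8*, *TT16*, *FUL*, *AG* and *AGL62*. Other genes named (further members of the lists, *WRI1*, *3xHMG-box1* and the ribosomal RNA genes) were picked after their values were seen. Alternatives were other pseudocounts (0.1 and 5), filters, quantile normalization, TMM scaling, no variance trend, no block, leaving out each library and adding replicate 1 of Ler × Col. Median centring and a filter on values above 0 in all 4 libraries were added after the data were seen.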

Additional observations from a re-analysis of the deposited data

Results flagged for a closer look

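The median difference of the cell division genes had opposite signs in the crosses, -0.47 in Col × Ler and 1.29 in Ler × Col. All genes tested had 0.62 and 1.39, so the excess of the list had the same sign in both (-1.09 and -0.11). The difference between the crosses was not tested, since each cross has a single library of each preparation.

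Replicate 1 of Ler × Col, the library that the comparison left out, stood above all 4 libraries compared in the mean log2(RPKM + 1) of all genes tested (3.93, against 3.78 and 3.65 in replicate 3 of Col × Ler and Ler × Col and 3.11 and 2.35 in replicate 2) and of 8 gene lists. The pollen list, chosen after values were seen, was also highest there (4.16, against 3.88 and 3.07 in replicate 3 and 1.58 and 1.24 in replicate 2). For embryo genes it was 3.62, against 2.04 and 1.46 in replicate 3 of Col × Ler and Ler × Col and 0.98 and 0.70 in replicate 2. For silique wall and carpel genes it was 3.30, and for vascular genes 3.27, against at most 2.07 and 2.24 in the libraries compared. The other lists were epidermis and stomata (4.35), seed coat regulators (4.10), handling and stress (4.02), endosperm (3.87, against 3.86 in replicate 3 of Col × Ler) and seed coat mucilage (3.79). It did not stand highest for seed coat pigment genes (4.81, against 5.07 and 5 in replicate 3) or photosynthesis genes (6.53, against 7.90 and 7.48 in replicate 3). Per the paper, first replicates came from a larger mass of siliques, and their exclusion followed its estimate of contamination. The part of either in these levels was not tested.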

How the results depend on the processing

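On the deposited values, 2985 genes were called higher and 67 lower in replicate 3. Stricter filters gave 1226 higher (above 0 in all 4 libraries), 552 and 31 (at least 1 in all 4) and 1066 and 25 (at least 5 in at least 2 libraries), and no filter gave 1804 higher. Rescaling gave 595 and 817 (quantile), 209 and 494 (TMM) and 541 and 1217 (median centred). Lower calls were also 125 with no variance trend, 41 with a pseudocount of 0.1 and 106 with a pseudocount of 5. With the cross left out as a block, limma called 0 higher and 0 lower genes (6218 and 279 at an unadjusted p under 0.05). The numbers of the libraries were what was compared, so they could not also serve as a pairing. With each library left out in turn, without the cross as a term and with a lone library assumed to vary like the others, higher calls ranged from 1166 (without Col × Ler replicate 3) to 14119 (without Col × Ler replicate 2) and lower calls from 0 (without either replicate 3 library, with 15 and 9 at an unadjusted p under 0.05) to 710 (without Col × Ler replicate 2).

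The median difference of all genes was 0.17 after TMM scaling and 0.03 after quantile normalization. The excess of photosynthesis genes over all genes rose to 1.53 after quantile normalization. That of endosperm genes was 0.02 above 0 in all 4 libraries, 0.51 with at least 1 in all 4, 0.40 with at least 5 in at least 2, 0.34 after TMM scaling, 0.30 with no filter, 0.30 with a pseudocount of 0.1, -0.11 with a pseudocount of 5, and 0.21 to 0.34 with a library left out. The excess of the pigment, regulator and maturation lists kept its sign in every alternative run, and that of the silique list did not (-0.78 to 0.99). Among named genes, 31 of 53 called higher and 13 of 14 called lower were called the same way after quantile normalization, and 20 and 10 after TMM scaling. No named call changed sign in any alternative. The causes of these shifts were not tested.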

Other observations

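Gene types outside the tissue lists differed between preparations as well. Of 145 tRNA genes tested, 67 were called higher in replicate 3 (46.2%, against 13.5% of all genes) and 6 lower (4.14%, against 0.302%). After quantile normalization, 5 were called higher and 10 lower. Their median difference was 1.51 in Col × Ler and 1.37 in Ler × Col, and 623 tRNA genes were in the table, most of which did not pass the filter. The 59 small nucleolar RNA genes tested had medians of -1.49 in Col × Ler and 1.28 in Ler × Col, and the 13 spliceosomal RNA genes -0.96 and -0.33. Of 334 genes of ribosomal proteins, 11 were called higher (3.29%, against 13.5% of all genes), and their median was -0.02 in Col × Ler and 1.5 in Ler × Col. Of 50 histone genes, 2 were called higher (4.0%), with medians of 0.09 and 1.19. Ribosomal protein and histone genes are of high level, where few genes of any kind were called higher. Such calls were 64 of 1282 genes with means of 50 to 100 RPKM and 31 of 986 with at least 100.

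The shift also moved with the level of a gene. Genes with a mean under 5 RPKM (7847 genes) had a median difference of 1.14 in Col × Ler and 1.1 in Ler × Col, and those with a mean of at least 100 RPKM (986 genes) had -0.29 and 1.05. In Col × Ler the median fell with each step of level, and in Ler × Col it was highest at 1.63, for means of 10 to 50 RPKM.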
